A study of Mus musculus with 5 samples.

Results

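The mouse insulin genes Ins1 and Ins2 and the amylin gene Iapp were followed in single islet cells across postpartum, pregnant and non-pregnant C57BL/6 mice. They are 3 of the 6628 genes measured in all libraries, chosen by name with earlier results of these data known. The polyadenylated RNA of dissociated islets was captured by inDrop, in which every cell sits in a droplet and each RNA molecule receives a unique molecular identifier (UMI) that is counted once. There were 5 libraries: postpartum 1, postpartum 2, pregnant 1, pregnant 2 and 1 library of non-pregnant mice. The labels give no age, gestation day, days after birth, sex, number of animals pooled or genetic modification. Whether the libraries of a state came from separate animals is not stated either, so the spread between them may be technical.

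Insulin is made by beta cells as preproinsulin, which is cleaved and folded in the endoplasmic reticulum and then cut by prohormone convertases inside secretory granules. Mice carry a pair of insulin genes: Ins2 is the ancestral gene with its introns, and Ins1 is a copy that arose through an RNA intermediate. Iapp encodes islet amyloid polypeptide, or amylin, which beta cells store and release together with insulin and which mouse delta cells are also known to express. Beta-cell mass and insulin output are known to expand during mouse pregnancy and to return afterwards.

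In the RefSeq annotation of GRCm38.p6, Ins1 lies on chr19:52264297-52265015 on the plus strand, Ins2 on chr7:142678656-142679726 on the minus strand and Iapp on chr6:142298425-142303820 on the plus strand. The 250 bases before the annotated starts of Ins1 and Iapp are shown. No promoter window was available for Ins2, so it cannot be compared here. Capitals mark CATCTG, an E-box of the kind bound by Neurod1, and TAAT, the core read by homeodomain factors such as Pdx1, on either strand (CAGATG and ATTA on the other).
Ins1 chr19:52264047-52264296: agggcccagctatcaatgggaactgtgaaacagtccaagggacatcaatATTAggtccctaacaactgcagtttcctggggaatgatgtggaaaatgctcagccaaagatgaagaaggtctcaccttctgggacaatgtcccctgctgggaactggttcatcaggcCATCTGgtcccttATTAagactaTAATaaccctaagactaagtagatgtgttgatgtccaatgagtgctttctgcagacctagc
Iapp chr6:142298175-142298424: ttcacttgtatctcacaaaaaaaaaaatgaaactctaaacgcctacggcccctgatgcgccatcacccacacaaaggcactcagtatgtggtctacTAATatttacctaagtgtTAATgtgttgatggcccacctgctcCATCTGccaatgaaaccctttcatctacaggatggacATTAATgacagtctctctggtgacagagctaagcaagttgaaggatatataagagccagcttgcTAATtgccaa
The Ins1 window held 1 CATCTG, beginning 84 bases before the start, and 3 TAAT. The Iapp window held 1 CATCTG, beginning 111 bases before the start, and 5 TAAT, of which 2 overlap as ATTAAT. Over the 32851 promoters of the RefSeq table, counted over the 250 bases before each start, 14.4% held a CATCTG and 54.9% a TAAT. A match describes the letters and is not evidence of binding.

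The coding sequences of Ins1 and Ins2 (GENCODE M21 transcripts Ins1-201 and Ins2-201) were identical at 300 of 330 aligned positions (90.9%). Of the 1013 windows of 50 bases in the Ins1 transcript, 7 (0.691%) also occurred in Ins2, and the longest identical run was 56 bases. Reads from such a stretch could be counted for either gene, and how the authors assigned them is not given in the sources used here.

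A cell was called insulin-led when its Ins1 plus Ins2 UMIs exceeded its UMIs of Gcg (glucagon, the alpha-cell hormone), of Sst (somatostatin, delta cells) and of Ppy (pancreatic polypeptide, gamma cells), and Gcg-led, Sst-led or Ppy-led in the same way. After 44 doublet calls were removed, 3846 of 4643 cells were insulin-led: 396 of 548 in postpartum 1, 894 of 1123 in postpartum 2, 1772 of 1992 in pregnant 1, 110 of 139 in pregnant 2, with 674 of 841 among non-pregnant cells. Their median UMIs per cell were 242.5, 558.5, 547, 91 and 2618 in the same order. Cells carried running numbers and not barcodes, so barcodes common to several libraries could not be counted.

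Libraries differed in depth within the states, and the non-pregnant library was the deepest. Total UMIs were 148522 and 781832 in the postpartum libraries, 1271186 and 16306 in the pregnant ones and 2561319 in the non-pregnant one. The non-pregnant file also came on another scale with 40930 features, against 6695 in the other 4, so the non-pregnant state cannot be told apart from that difference in processing. Pregnant 2 stood apart, with 1193 detected features against 6070 to 27309 elsewhere.

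The label of insulin-led cells was set against 9 beta-cell markers that the rule did not use. Their summed level was 3800 and 2611 CPM (UMIs per 1000000 UMIs) in insulin-led cells of postpartum 1 and 2, 3308 and 7689 CPM in those of pregnant 1 and 2, and 2461 CPM in those of the non-pregnant library. In Gcg-led cells the same sums were 1127, 518, 407, 0 and 366 CPM. The sum was thus higher in insulin-led cells of every library, and 6, 8, 8, 4 and 8 of the 9 markers were. Slc30a8, the zinc transporter of the granule, was higher in Gcg-led cells of the 4 libraries other than pregnant 2, and in postpartum 1 so were Pdx1 and Nkx6-1. In insulin-led cells of pregnant 2 the markers Nkx6-1, Slc2a2, Slc30a8, Pdx1 and Sytl4 were at 0. Of other cell types, 11 acinar markers summed to 1436, 1463, 15.5, 6414 and 669 CPM in insulin-led cells in the same library order, and their part in the results below was not tested.

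Ins2 was the more abundant insulin transcript in insulin-led cells of every library. Its mean share of a cell's UMIs was 30.2% in postpartum 1 and 37.0% in postpartum 2, against 17.3% and 20.5% in pregnant 1 and 2, while the non-pregnant library had 16.1%. Both postpartum libraries lay above both pregnant libraries, and the non-pregnant library was the lowest. Pooling the UMIs of the class gave 30.8% (95% exact interval 30.5% to 31.1%), 37.7% (37.6% to 37.8%), 17.4% (17.4% to 17.5%), 19.5% (18.8% to 20.3%) and 16.09% (16.04% to 16.14%), intervals that cover counting error only. The group means were 33.6% ± 4.80 in postpartum and 18.9% ± 2.28 in pregnant libraries (SD, n = 2 each), and 16.1% in the non-pregnant library (n = 1).

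Ins1 made up a smaller share in every library. Its mean share was 14.6% and 15.6% in the postpartum libraries, 12.7% in each pregnant library and 8.07% in the non-pregnant library. The 3 states did not overlap, and the order was the same as for Ins2. How many of all tested genes also set the states apart was not counted, so the order is a description for both genes. Group means were 15.1% ± 0.725 in postpartum and 12.7% ± 0.0133 in pregnant libraries (SD, n = 2 each). The closeness of the pregnant pair holds for the means only, since the medians over cells were 12.7% in pregnant 1 and 7.47% in pregnant 2.

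Iapp showed no order by state. Mean shares were 7.70% in postpartum 1 and 2.85% in postpartum 2, 4.79% and 3.04% in pregnant 1 and 2, and 5.57% in non-pregnant cells. The highest and the lowest value both came from postpartum libraries. The middle 50% of cells ran between 4.599% and 10.3% in postpartum 1 but between 1.498% and 3.44% in postpartum 2, so that the quartile ranges of these libraries of 1 state were apart. In pregnant 2 the median cell held no Iapp UMI, and 41.8% of its insulin-led cells held any, against 96.8% to 99.9% in the other libraries. With each cell thinned to 60 UMIs the detected shares of insulin-led cells were 95.04%, 72.6%, 91.8%, 36.5% and 92.6% in the order postpartum 1, postpartum 2, pregnant 1, pregnant 2 and non-pregnant. In Gcg-led cells, which should make little of it, the thinned shares were 18.0%, 14.8%, 29.5%, 0% and 23.3%.

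**Figure D1:**
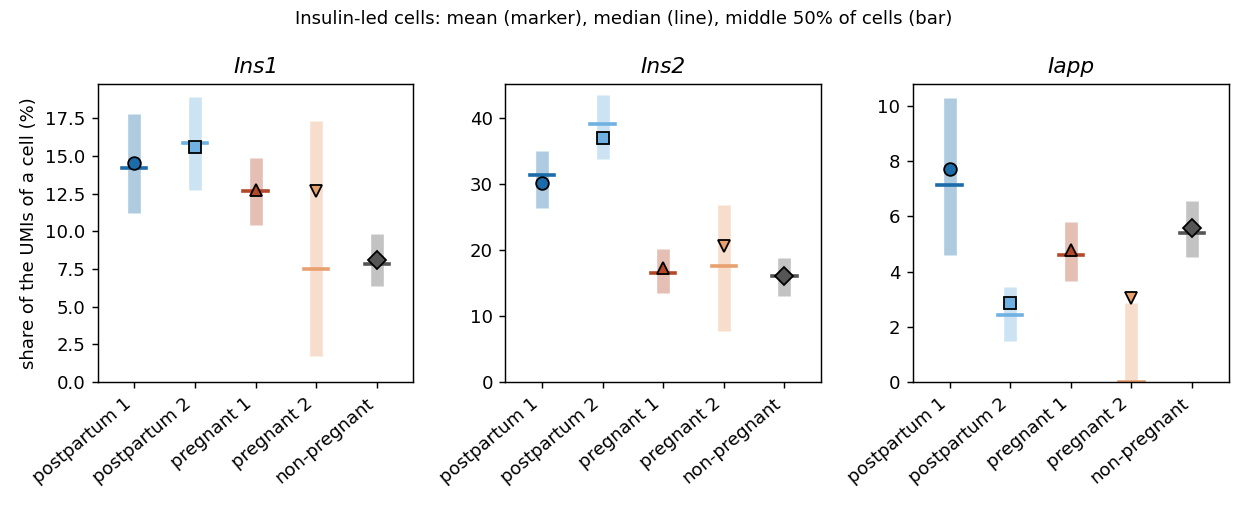
Mean share of all UMIs of a cell (percent) taken by Ins1, Ins2 and Iapp in insulin-led cells, with 1 point per library and libraries grouped as postpartum, pregnant and non-pregnant. Ins2 is at 30.2% and 37.0% in the postpartum libraries and at 16.1% to 20.5% in the others, while Iapp is both highest (7.70%) and lowest (2.85%) in a postpartum library.

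The levels of all genes were compared over libraries with limma on log2(mean CPM + 100), which understates changes of low genes. Of the 905 genes tested, 0% were called at an adjusted p under 0.05 in each of the 3 comparisons, so none of the members passed either. At an unadjusted p under 0.05 there were 11 genes for pregnant against non-pregnant, 12 for postpartum against non-pregnant and 18 for postpartum against pregnant. edgeR on recovered UMIs called 0 in each as well, and DESeq2 called 6, 9 and 0. The comparisons with the non-pregnant state share its 1 library, and the comparisons of the postpartum state share the postpartum libraries.

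For postpartum against pregnant libraries, the log2 difference of Ins2 was 0.83 ± 0.15 (SE; limma unadjusted p = 0.00055, adjusted p = 0.50). That of Ins1 was 0.24 ± 0.16 (limma adjusted p = 0.79), and that of Iapp was 0.30 ± 0.46 (limma adjusted p = 0.90). edgeR on recovered UMIs gave larger values for Ins2, Ins1 and Iapp, at 2.16, 1.52 and 1.28 (adjusted p = 0.999 each), and so did DESeq2, at 2.03, 1.41 and 1.20 (adjusted p = 0.21, 0.63 and 0.84). The Ins2 difference did pass with an adjusted p of 0.038 (limma) when the leading transcript had to be at least 10 times each of the others. Ins2 differed by 0.97 without postpartum 1, 0.68 without postpartum 2 and 0.95 without pregnant 2. Each of these fits leaves 1 library in a state, so only the size is given. The Iapp difference turned to -0.42 without postpartum 1 and to -0.031 without pregnant 2, and was 1.01 without postpartum 2.

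For postpartum against non-pregnant, Ins2 differed by 1.06 ± 0.19 (limma unadjusted p = 0.00041, adjusted p = 0.36) and Ins1 by 0.90 ± 0.20 (limma unadjusted p = 0.0016, adjusted p = 0.36). Iapp differed by -0.25 ± 0.56 (limma adjusted p = 1.0). With edgeR the values of Ins2 and Ins1 were 1.68 and 1.54, and with DESeq2 1.64 and 1.504, of which none passed. For pregnant against non-pregnant, the log2 differences were 0.65 ± 0.20 for Ins1 (limma unadjusted p = 0.0096, adjusted p = 0.83), 0.23 ± 0.19 for Ins2 (limma adjusted p = 0.83) and -0.55 ± 0.56 for Iapp (limma adjusted p = 0.83). Without postpartum 1 or postpartum 2, which leaves 1 library in that state, Ins1 differed from the non-pregnant library by 0.95 or 0.85 in postpartum. Ins2 differed by 1.20 or 0.91 in the same fits.

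Several of these values depended on the scale. The median log2 difference of all 905 genes was -0.28 for postpartum against non-pregnant, -0.16 for pregnant against non-pregnant and -0.16 for postpartum against pregnant. Counted over UMIs of shared genes other than hormones, the Iapp differences from the non-pregnant library turned positive, at 0.44 for postpartum and 0.10 for pregnant. The median of the 2207 genes tested on that scale was -0.01 for postpartum against non-pregnant, -0.59 for pregnant against non-pregnant and 0.57 for postpartum against pregnant. Ins2 in pregnant against non-pregnant libraries was -0.48 with edgeR and -0.39 with DESeq2, and the Ins1 difference of that comparison ran from 0.015 to 1.45 over all alternatives.

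Single insulin-led cells spread widely around these means. Ins1 and Ins2 together took a median of 46.1% of a cell's UMIs in postpartum 1, 55.8% in postpartum 2, 29.2% and 27.7% in pregnant 1 and 2, and 24.0% in non-pregnant cells. The SD over cells was 10.5, 14.5, 9.27, 22.2 and 8.29 percentage points in the same order. Cells with over 50% insulin UMIs made up 29.5% (117 cells) and 71.6% (640 cells) in the postpartum libraries, 3.05% (54 cells) and 20.9% (23 cells) in the pregnant ones and 0.445% (3 cells) in the non-pregnant one. Pregnant 2 thus had a median like that of pregnant 1 but larger shares of its cells at both ends.

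Cells with under 10% insulin UMIs numbered 8, 37, 39, 15 and 33 in that library order. Of these, 4, 34, 17, 1 and 24 also carried markers of a non-endocrine cell type (at least 2 marker genes and 3 UMIs of 1 list). Over all insulin-led cells the marked counts were 9 of 396, 44 of 894, 59 of 1772, 1 of 110 and 160 of 674. A rule with a fixed number of UMIs is met more easily in deeper libraries. Cells with at least 10% Gcg UMIs, which held a second hormone beside insulin, numbered 8, 26, 13, 1 and 4. Whether they are doublets that the caller did not mark was not tested.

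**Figure D2:**
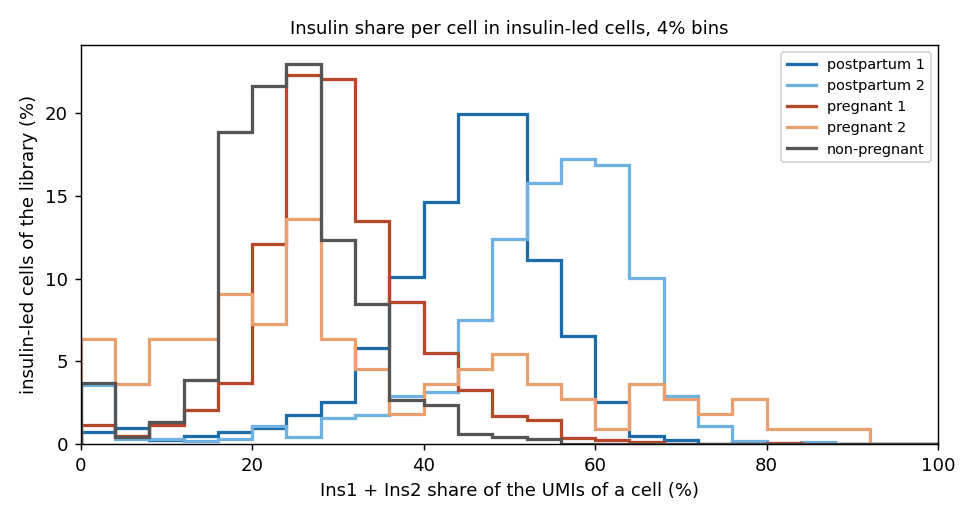
Percent of insulin-led cells (vertical axis) by the share of their UMIs that is Ins1 plus Ins2 (percent, in bins of 4 points), 1 line per library. The postpartum lines peak near 46.1% and 55.8%, the medians of those libraries, pregnant 1 and the non-pregnant library peak below 30%, and pregnant 2 has cells in every bin up to its highest cell at 88.2%.

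The balance between the insulin genes was described by the ratio of their mean shares. Ins1 to Ins2 was 0.482 in postpartum 1 and 0.421 in postpartum 2, against 0.735 and 0.618 in pregnant 1 and 2, and 0.503 in non-pregnant cells. Both pregnant libraries lay above the non-pregnant library and both postpartum libraries below it. From pooled UMIs the ratios were 0.490 (95% interval 0.481 to 0.4998), 0.454 (0.450 to 0.457), 0.753 (0.748 to 0.758), 0.628 (0.586 to 0.672) and 0.516 (0.513 to 0.519) in the same order.

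On the log2 scale the ratio was 0.58 lower in postpartum than in pregnant libraries (a log2 difference of -0.58, exact permutation p = 0.333 two-sided, the smallest that 2 against 2 allows). Against the non-pregnant library it differed by -0.16 in postpartum (exact permutation p = 0.667) and by 0.42 in pregnant libraries (exact permutation p = 0.333, again the smallest possible). No p below 0.333 can be had with these numbers of libraries. Over the 12 ratio tests the adjusted p of these 3 was 0.643 to 0.727.

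In single cells with at least 20 insulin UMIs, the median part of Ins1 among insulin UMIs was 32.0% and 29.5% in the postpartum libraries, 42.9% and 36.4% in the pregnant ones and 33.0% in the non-pregnant one. The SD over cells was 8.02, 6.24, 7.05, 25.5 and 5.17 percentage points, against 4.77, 2.90, 4.22, 8.23 and 2.31 from counting alone. Cells with more Ins1 than Ins2 were 10 of 389 in postpartum 1, 2 of 861 in postpartum 2, 249 of 1750 and 25 of 75 in pregnant 1 and 2, and 1 of 661 in non-pregnant cells. Such cells made up 14.2% and 33.3% in the pregnant libraries and at most 2.57% in the others. The middle 50% of cells ran from 38.1% to 47.6% Ins1 in pregnant 1 but from 15.2% to 57.6% in pregnant 2. The lower quartile of pregnant 2 was the lowest of all libraries, so its cells spread both ways. They held a median of 38 insulin UMIs.

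Across insulin-led cells the shares of Ins1 and Ins2 went together in 4 libraries, with Pearson's r of 0.32, 0.57, 0.62 and 0.81 in postpartum 1, postpartum 2, pregnant 1 and the non-pregnant library. In pregnant 2 it was 0.06 over 110 cells. The shares of a cell have a common total and depth, so these are descriptions. For insulin and Iapp, r was -0.09, 0.12, 0.01, -0.06 and 0.30 in the order postpartum 1, postpartum 2, pregnant 1, pregnant 2 and non-pregnant.

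Splitting cells by depth or by a second hormone did not change the order of the states. Cells below and above the median depth of their library gave Ins1 to Ins2 ratios of 0.472 and 0.492 in postpartum 1, 0.381 and 0.458 in postpartum 2, 0.715 and 0.754 in pregnant 1, 0.585 and 0.659 in pregnant 2, and then 0.481 and 0.524 in non-pregnant cells. The deeper cells had the higher ratio in all 5 libraries. Among cells with under 1% Gcg UMIs the ratios were 0.475, 0.417, 0.683, 0.607 and 0.513 in the same library order. In each of these subsets the pregnant libraries stayed above the other 3.

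The Iapp to Ins2 ratio varied more within a state than Ins1 to Ins2 did. It was 0.255 in postpartum 1 and 0.0770 in postpartum 2, against 0.276 and 0.148 in pregnant 1 and 2, and 0.347 in non-pregnant cells. The postpartum and pregnant ranges overlapped, and the non-pregnant value was the highest. The log2 difference was -1.31 for postpartum against non-pregnant, -0.78 for pregnant against non-pregnant and -0.53 for postpartum against pregnant (exact permutation p = 0.667 each, two-sided). Without postpartum 2 the last of these turned to 0.33.

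Cells with the same insulin share can be set side by side. Among cells with 30% to 40% insulin UMIs, Iapp averaged 9.24% in postpartum 1 (70 cells), 3.92% in postpartum 2 (49 cells), 4.83% in pregnant 1 (581 cells) and 5.98% in the non-pregnant library (106 cells). At 40% to 50% insulin it was 8.34% (178 cells), 3.64% (139 cells), 4.35% (173 cells) and 4.69% (22 cells) in the same order. The gap between the postpartum libraries was therefore present at matched insulin shares too.

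The Ins1 to Ins2 ratio was also read at matched shares. At 30% to 40% insulin it was 0.468 and 0.396 in postpartum 1 and 2, 0.731 in pregnant 1, and 0.529 in non-pregnant cells. At 40% to 50% insulin it was 0.466 and 0.416 in postpartum 1 and 2, 0.658 in pregnant 1, and 0.510 in non-pregnant cells. Pregnant 2 had fewer than 20 cells in each of these ranges. At 20% to 30% insulin the ratio was 0.572 in pregnant 2 (29 cells) and 0.778 in pregnant 1, against 0.498 in non-pregnant cells. At 10% to 20% it was 0.374 in pregnant 2 (20 cells) and 0.773 in pregnant 1, against 0.495 in non-pregnant cells, so that pregnant 2 lay below the non-pregnant library there.

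**Figure D3:**
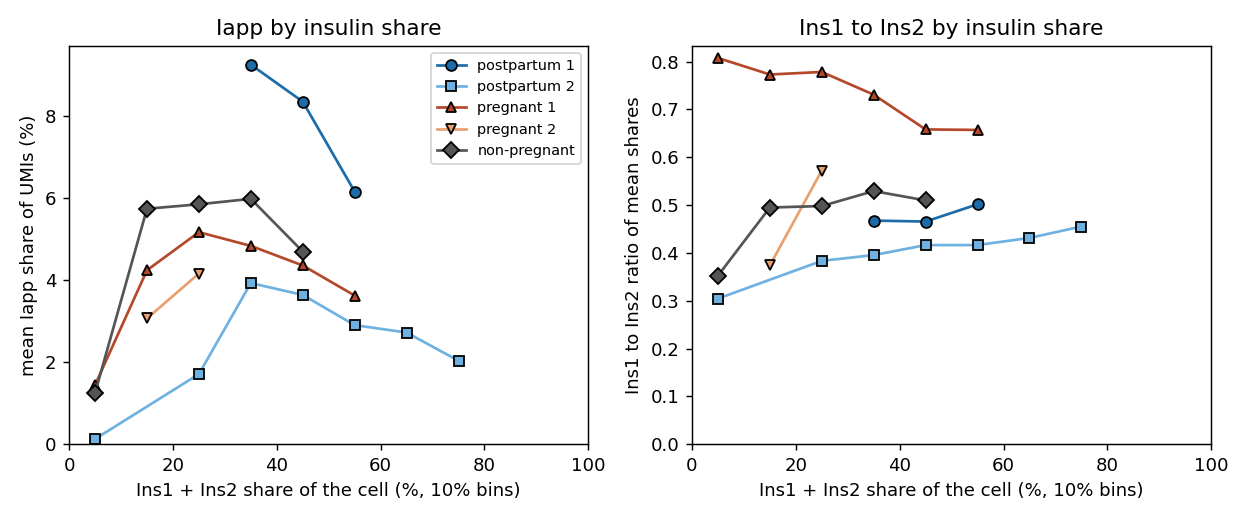
Ins1 to Ins2 ratio and mean Iapp share (percent of UMIs) of insulin-led cells by their insulin share in steps of 10 percentage points, 1 line per library, with points only where at least 20 cells fall in a step. Pregnant 1 lies above the postpartum and non-pregnant lines in the ratio, for example 0.731 against 0.396 to 0.529 at 30% to 40%, and postpartum 1 lies highest in Iapp, at 9.24%.

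Outside insulin-led cells the members were followed in Gcg-led, Sst-led and Ppy-led cells. Because cells were sorted on Ins1 plus Ins2 against the other hormones, a lower insulin level there is fixed by the rule and is given only as a description. In Gcg-led cells the mean share of Ins2 was 1.74% and 1.86% in the postpartum libraries, 1.46% and 0.205% in the pregnant ones and 0.898% in the non-pregnant one. That is 5.76%, 5.03%, 8.43%, 0.997% and 5.59% of the Ins2 share of insulin-led cells of the same library. Medians over cells were lower than the means, at 0.265%, 0.501%, 0.656%, 0% and 0.707%.

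Ins1 in Gcg-led cells was 0.782%, 0.677%, 0.965%, 0.157% and 0.299% in the same library order. Its ratio to Ins2 there was 0.450, 0.364, 0.661, 0.767 and 0.333, and the value of pregnant 2 rests on 3 UMIs of each gene. On the log2 scale the ratio in Gcg-led minus insulin-led cells was -0.15 over 5 libraries, and it was higher in Gcg-led cells in 1 of 5 (exact sign-flip permutation p = 0.375 two-sided, adjusted p = 0.643, smallest possible 0.0625). Without pregnant 2 the mean difference was -0.26. Pregnant 1 had the highest ratio of the 4 better-covered libraries in both classes.

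In the non-pregnant library the ratio was lower in all 3 other classes than in insulin-led cells. It was 0.333 in Gcg-led, 0.332 in Sst-led and 0.330 in Ppy-led cells, against 0.503 in insulin-led cells. From pooled UMIs the 3 class ratios were 0.328 (95% interval 0.299 to 0.358), 0.322 (0.281 to 0.368) and 0.304 (0.257 to 0.359), against 0.516 (0.513 to 0.519) in insulin-led cells. Insulin-led cells of that library with under 10% insulin UMIs had a ratio of 0.352. In postpartum 1 and 2 such cells were also lower than the other insulin-led cells (0.398 against 0.482 and 0.305 against 0.422). They were higher in pregnant 1 and 2 (0.808 against 0.735 and 0.767 against 0.616). Postpartum 2 also had a lower ratio in all 3 other classes than in insulin-led cells (0.421). It was 0.364 in Gcg-led, 0.256 in Sst-led and 0.368 in Ppy-led cells there. Over the 4 libraries with enough cells, the log2 difference was -0.12 for Sst-led minus insulin-led cells (exact sign-flip permutation p = 0.875, higher in 1 of 4) and -0.20 for Ppy-led minus insulin-led cells (exact sign-flip permutation p = 0.375, higher in 1 of 4). The library with the higher ratio in Sst-led cells was postpartum 1, where it rests on 8 Ins1 and 9 Ins2 UMIs.

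Iapp stood out in Sst-led cells, in which its mean share was 2.05% in postpartum 1, 0.603% in postpartum 2, 2.08% in pregnant 1, and 3.35% in non-pregnant cells. This was 26.6%, 21.2%, 43.5% and 60.1% of the share in insulin-led cells. The share of Ins2 in the same Sst-led cells, which the rule keeps low, was 1.00%, 2.50%, 3.07% and 5.78% of that in insulin-led cells. Postpartum 2 had the lowest Iapp share in insulin-led and in Sst-led cells among these 4 libraries. The pregnant 2 library had 5 Sst-led and 3 Ppy-led cells and is left out of both classes. In the 4 libraries there were 15, 25, 36 and 39 Sst-led cells. Of these, 3, 6, 4 and 17 had Sst at least 10 times each other leading hormone, so many held a second hormone. The delta markers Rbp4, Hhex and Pcsk1 summed to 0, 1651, 2246 and 3122 CPM there, against 547, 284, 876 and 596 CPM in Gcg-led cells. The Sst-led label of postpartum 1 thus rests on Sst alone.

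The Iapp to Ins2 ratio was 6.76, 0.652, 3.92 and 3.61 in Sst-led cells of postpartum 1, postpartum 2, pregnant 1 and the non-pregnant library. The value of postpartum 1 rests on 52 Iapp and 9 Ins2 UMIs. In Ppy-led cells the ratio was 0.340, 0.375, 0.642 and 1.07, and in Gcg-led cells of these 4 libraries 0.303, 0.184, 0.488 and 0.607. The sorting rule bounds Ins2 in these classes and so raises the ratio over that of insulin-led cells, and the values are given as a description with no test. Between the classes that are all low in Ins2 by the rule, the ratio of Sst-led cells was the highest in each of the 4 libraries.

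After thinning to 60 UMIs per cell, 65.6%, 28.2%, 66.7% and 78.6% of Sst-led cells held an Iapp UMI in postpartum 1, postpartum 2, pregnant 1 and the non-pregnant library. Gcg-led cells of the same libraries were at 18.0%, 14.8%, 29.5% and 23.3%. Iapp took 0.323%, 0.166%, 0.918% and 0.603% of UMIs in Ppy-led cells of these libraries and 0.526%, 0.342%, 0.712% and 0.545% in Gcg-led cells. Ppy-led cells were thus lower than Gcg-led cells in both postpartum libraries and higher in pregnant 1. In the non-pregnant library the mean was higher in Ppy-led cells but the median was lower (0.239% against 0.326%). In non-endocrine cells, with at least 5% of UMIs on 1 marker list, Iapp took 0.203%, 0.340%, 0% and 0.278% of UMIs, and 12.2%, 13.9%, 0% and 14.3% of them held an Iapp UMI after thinning. These rest on 7, 12, 5 and 4 cells, a class added after the data were seen. Sst-led cells were above this background in each of the 4 libraries, while the means of Gcg-led and Ppy-led cells of postpartum 2 were close to or below it. Insulin-led cells were not excluded from this class. In postpartum 2 the highest values of any of its cells were 33.7% for Ins2 and 2.52% for Iapp. Its median Iapp share there was 0%, beside 0.129% in Gcg-led and 0% in Ppy-led cells.

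**Figure D4:**
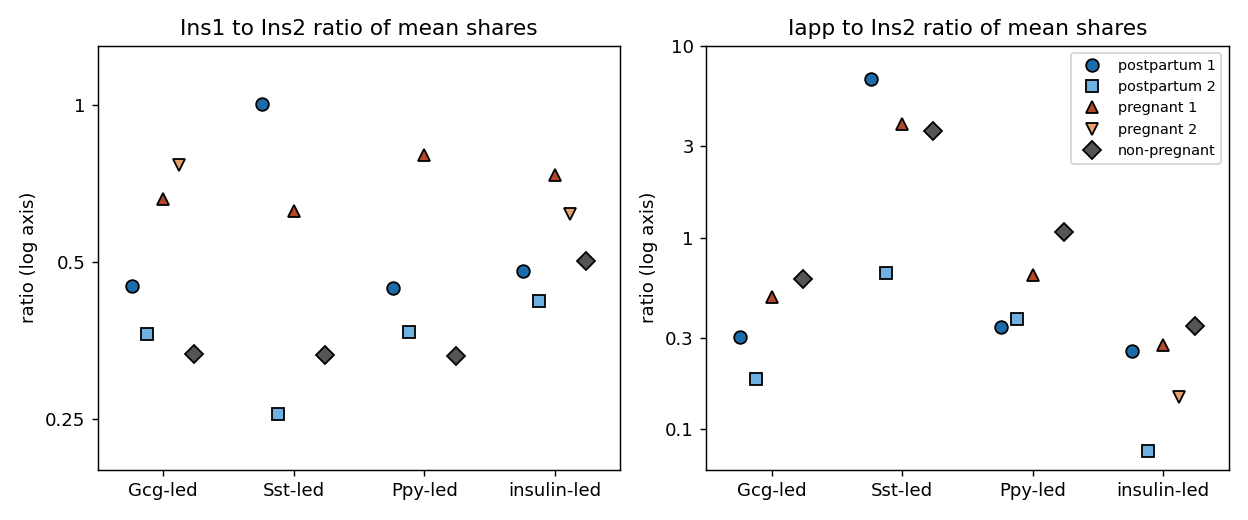
Ins1 to Ins2 (left) and Iapp to Ins2 (right) ratios of mean shares on log axes, 1 point per library for insulin-led, Gcg-led, Sst-led and Ppy-led cells with at least 10 cells. Iapp to Ins2 is between 0.652 and 6.76 (the latter from 9 Ins2 UMIs) in Sst-led cells and between 0.0770 and 0.347 in insulin-led cells.

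**Figure D5:**
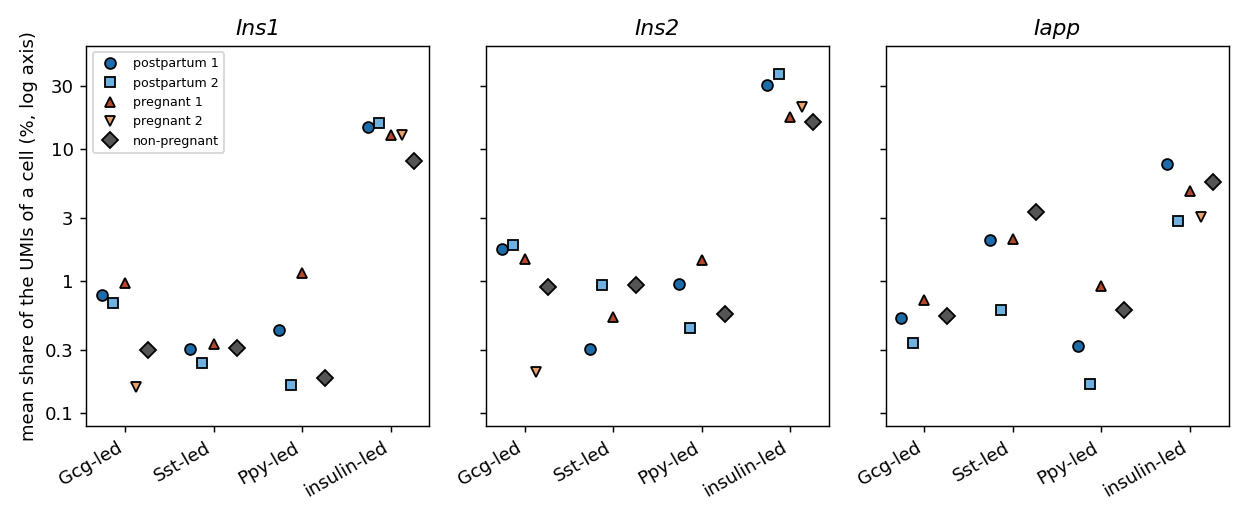
Mean share of UMIs (percent, log axis) of Ins1, Ins2 and Iapp in each class of cells, 1 point per library. Iapp is at 0.603% to 3.35% in Sst-led cells and at 0.342% to 0.712% in Gcg-led cells of the same 4 libraries, while the low insulin level outside insulin-led cells is set by the sorting rule.

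A list of 36 genes known to act in insulin production was set beside the members: transcription factors of the insulin genes, proteins of translocation and folding, processing enzymes and granule proteins. All 36 were measured, 25 passed the filter of a mean of 100 CPM over the libraries (4 of 12 transcription factors, 10 of 12 folding genes, 5 of 5 processing genes and 6 of 7 granule genes), and 0 were called in any of the 3 comparisons by limma. Their median log2 difference was 0.23 for postpartum against non-pregnant, 0.05 for pregnant against non-pregnant and 0.21 for postpartum against pregnant, beside -0.28, -0.16 and -0.16 for all 905 genes. Fold signs were mixed, with 16, 14 and 15 of the 25 positive in the same order.

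The 4 list genes with the highest levels were Chga, Pcsk2, Scg2 and Chgb. Chga (chromogranin A, a granule protein) was at 6043 and 4908 CPM in the postpartum libraries, 3435 and 2980 CPM in the pregnant ones and 3984 CPM in the non-pregnant one. Pcsk2, the convertase that acts on proinsulin and on proglucagon, was at 3849 and 4313 CPM in postpartum, 3954 and 6037 CPM in pregnant and 2981 CPM in non-pregnant insulin-led cells. Scg2 (secretogranin II) was at 4461 and 2953 CPM in postpartum, 3619 and 6183 CPM in pregnant and 2765 CPM in non-pregnant insulin-led cells. For Chga the postpartum libraries were above the other 3, while Pcsk2 and Scg2 were highest in pregnant 2.

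Chgb (chromogranin B) was at 2580 and 1783 CPM in postpartum, 2186 and 7168 CPM in pregnant and 1209 CPM in non-pregnant insulin-led cells. The value of pregnant 2 rests on 87 UMIs, and Chgb is the fourth by mean level only through it. Hspa5, the chaperone BiP, named after its values were seen, was at 2784 and 2195 CPM in postpartum, 1340 and 1971 CPM in pregnant and 1612 CPM in non-pregnant insulin-led cells. None of these 4 passed the limma threshold in any comparison.

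Without pregnant 2, limma called 169 of 886 genes (19.1%) for postpartum against non-pregnant, 56 (6.32%) for pregnant against non-pregnant and 78 (8.8%) for postpartum against pregnant, with pregnant 1 assumed to vary like the postpartum libraries. None of Ins1, Ins2 and Iapp was among them, and the log2 difference of Ins2 was 0.95 for postpartum against pregnant. Fits that left out a postpartum library instead did call Ins2 in that comparison. Whether a member was called thus depended on the library left out. Of the 25 list genes, 6 were called for postpartum against non-pregnant, namely Mafa, Sec61b and Ptprn2 as higher and Spcs2, Cpe and Pcsk1n as lower. For pregnant against non-pregnant 3 were called, Mafa and Ptprn2 as higher and Cpe as lower, and for postpartum against pregnant 1, Pcsk1n as lower.

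Mafa, a transcription factor that binds the insulin promoter, was at 640 and 360 CPM in postpartum, 505 and 1019 CPM in pregnant and 0.738 CPM in non-pregnant insulin-led cells. The non-pregnant level is 1 UMI, although that library is the deepest. Cpe, the carboxypeptidase that trims processed insulin, was at 377 and 185 CPM in postpartum, 339 and 466 CPM in pregnant and 1584 CPM in non-pregnant cells. Pcsk1n, which encodes an inhibitor of prohormone convertase 1, was at 436 and 256 CPM in postpartum, 1191 and 1399 CPM in pregnant and 1246 CPM in non-pregnant cells. Only Pcsk1n of these 3 set the postpartum libraries apart from all the others, whereas Mafa and Cpe set apart the non-pregnant library, whose file was processed differently.

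Genes whose level went with that of each member were listed over 18 combinations of library and class, among 1021 genes that averaged 100 CPM or more. The 5 most like Ins1 were G6pc2 (r = 0.95), Ero1lb (r = 0.94), Ucn3 (r = 0.92), Prlr (r = 0.89) and Prss53 (r = 0.87). The same 5 were nearest to Ins2, with r of 0.94, 0.94, 0.90, 0.88 and 0.85. For Iapp they were Scg2 (r = 0.85), Chgb (r = 0.80), Hadh (r = 0.80), Cd164 (r = 0.79) and Acly (r = 0.75). Classes of 1 library share its depth and preparation, and the classes were defined by hormone, so these values, like the r of 0.98 between Ins1 and Ins2, are descriptions.

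The genes nearest to the insulin pair were at low levels outside insulin-led cells, which their selection by correlation with Ins1 and Ins2 favours. G6pc2, the islet glucose-6-phosphatase subunit, ran between 812 and 1730 CPM in insulin-led cells and between 0 and 156 CPM in the other classes. Prlr, the prolactin receptor through which placental lactogens act on beta cells, ran between 490 and 2254 CPM in insulin-led cells and between 0 and 289 CPM in the others. Scg2, the nearest to Iapp, ran between 2765 and 6183 CPM in insulin-led cells and between 0 and 4762 CPM in the others. Iapp itself correlated with Ins1 at 0.67 and with Ins2 at 0.68 over the same points.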

How the data were processed

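inDrop libraries of polyadenylated RNA were analysed for 2 postpartum, 2 pregnant and 1 non-pregnant sample. GRCm38, mm10, Partek 8.0 and Bowtie 1.1.1 are named, per the submitters' processing notes, without their roles. How cells and features were filtered is not stated there. For non-pregnant cells the authors deposited a linear signal over 40930 features that sums to 3023.99 in each cell. For the others they deposited log2 of UMIs per 1000000 (CPM) plus 1 over 6695 features. In both, 100% of values came out as whole UMI counts (tolerance 0.1), and in 9 cells of pregnant 2 the smallest value stands for more than 1 UMI. A share is a gene's UMIs over all UMIs that the authors divided the cell by. Cells held 125 to 3300 UMIs in postpartum and pregnant 1 libraries, 68 to 281 in pregnant 2 and 1000 to 10784 in the non-pregnant library.

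Genes were matched by symbol (6543) or synonym (85). Doublets were marked with scrublet (scanpy 1.11.5) and removed (9, 3, 1, 25 and 6 cells in postpartum 1, postpartum 2, pregnant 1, pregnant 2 and non-pregnant). limma 3.58.1 (R 4.3.3, trended prior, Benjamini-Hochberg, 3 groups, 2 residual degrees of freedom) was run on log2(mean CPM + 100) of insulin-led cells for genes averaging 100 CPM or more, and was checked on simulated data. edgeR 4.0.16 and DESeq2 1.42.0 on recovered UMIs were alternatives. Log2 ratios were tested by exact permutation over libraries, and intervals are exact.

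Named genes are the members, list genes past the limma threshold or else the 4 with the highest level, and the 5 genes most correlated with each member. Of the list genes called without pregnant 2, Mafa, Cpe and Pcsk1n were described after their values were seen. Members and lists were chosen with earlier results of these data known. Promoters are from RefSeq (GRCm38.p6), with 2 of 3 members matched.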

Additional observations from a re-analysis of the deposited data

Results flagged for a closer look

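The Ins1 to Ins2 ratio in insulin-led cells differed in sign between the states when set against the non-pregnant library. It was below the non-pregnant ratio of 0.503 in both postpartum libraries (0.482 and 0.421) and above it in both pregnant libraries (0.735 and 0.618). The log2 difference of postpartum minus pregnant libraries was -0.58, with an exact permutation p of 0.333 (two-sided), the smallest possible with 2 libraries against 2. Leaving out each library in turn gave -0.71 to -0.46. The sources of the difference were not tested.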

How the results depend on the processing

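Of 263 values of 21 results recomputed under alternatives, 231 kept their direction and side of the threshold, 20 passed the threshold only under the alternative, 0 lost it and 12 turned their direction. The following numbers are log2 differences, with calls by limma unless a tool is named.

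Without a filter on low values (6628 genes) the error of top genes came from the trend alone, and Ins1 and Ins2 passed in postpartum against non-pregnant (0.90 and 1.06), pregnant against non-pregnant (0.65 and 0.23) and postpartum against pregnant (0.24 and 0.83), with 4, 3 and 2 genes called in all. Over non-hormone UMIs, Ins2 passed in postpartum against non-pregnant (1.71) among 2 genes called, and Iapp turned to 0.44 in that comparison and to 0.10 in pregnant against non-pregnant. With 10 CPM added, 1 gene was called in postpartum against non-pregnant. edgeR turned Ins2 in pregnant against non-pregnant (-0.48) and Iapp in postpartum against non-pregnant (0.28). DESeq2 did so too (-0.39 and 0.25), and called 9 genes in postpartum against non-pregnant and 6 in pregnant against non-pregnant. In cells whose leading transcript was at least 10 times each of the others, Ins2 was the 1 gene called in postpartum against non-pregnant (0.97) and in postpartum against pregnant (0.81). With cells of at least 100 UMIs, Ins2 was the 1 gene called in postpartum against pregnant (0.99). The cause of these changes was not tested.

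With a replicate block, in which libraries of the same number form a pair, Ins2 in postpartum against pregnant stayed at 0.83 and passed, as the 1 gene called of 828. The ratios stayed at -0.58 and -0.53. The deviations of same-numbered libraries correlated at 0.0614 over 905 genes, and the labels give no pairing.

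Leaving out 1 library at a time left an arm with 1 library that was assumed to vary like the others, or no non-pregnant arm. Counts of genes called ran from 2 to 169 in postpartum against non-pregnant, 1 to 709 in pregnant against non-pregnant and 1 to 710 in postpartum against pregnant. Ins2 ran from 0.91 to 1.20, 0.11 to 0.35 and 0.68 to 0.97 in those comparisons, Ins1 from 0.85 to 0.95, 0.65 to 0.65 and 0.20 to 0.29, and Iapp from -0.97 to 0.47, -0.87 to -0.22 and -0.42 to 1.01. Iapp turned to 0.47 in postpartum against non-pregnant without postpartum 2, and in postpartum against pregnant to -0.42 without postpartum 1 and to -0.031 without pregnant 2. The Iapp to Ins2 ratio of postpartum against pregnant ran from -1.39 to 0.33, turning without postpartum 2. The Ins1 to Ins2 ratio of Sst-led minus insulin-led cells, -0.12 over all 4 libraries (exact permutation p = 0.875), ran from -0.51 to 0.078. It turned to 0.078 without postpartum 2 and to 0.038 without the non-pregnant library.

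Depth limits pregnant 2 most: its 110 insulin-led cells hold 2174 Ins2 and 368 Iapp UMIs. Its 17 Gcg-led cells held 0 Iapp UMIs, for which 3 counts of its 1842 UMIs give a limit of 0.163% and the exact 95% interval an upper bound of 0.200%. With 1 non-pregnant library, a spread between animals cannot be had for that state.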
